A study of Rattus norvegicus with 9 samples.

Results

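The genes described here are 10 immediate early genes of the AP-1 and EGR type, Fos, Fosb, Fosl1, Fosl2, Jun, Junb, Jund, Egr1, Ier2 and Atf3, taken by their RefSeq symbols out of 36856 genes with a summed value. RNA sequencing was done on cells of the rat line H9c2(2-1), a wild-type myoblast line derived from the embryonic heart of BD1X rats. The 9 libraries form 3 groups of 3: cells given energized structured water (ESW), cells given control water (CW) and untreated cells (Control). ESW and CW were applied at a dilution of 0.01 for 72 h with a daily change of medium, Control cells stayed in growth medium, and all 3 groups were grown in DMEM with fetal serum and antibiotics. The labels record neither a medium change nor a duration for Control, nor whether libraries with the same treatment stem from different cultures. The p-values therefore reflect only how these samples vary among themselves, and that variation may be technical. In bulk RNA, fewer cells of a type and less RNA per cell cannot be told apart.

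AP-1 is a dimeric transcription factor that binds the TPA response element. It is built from JUN proteins (Jun, Junb, Jund), which can pair with each other, and FOS proteins (Fos, Fosb, Fosl1, Fosl2), which need a JUN partner, and ATF3 can join the same dimers. Fos, Junb, Egr1 and Ier2 are transcribed within minutes of stimulation by serum, growth factors or stress through the serum response factor and CREB, and their mRNAs decay quickly, whereas Jund is expressed in most cells at rest. In heart muscle cells Fos, Jun and Egr1 are known as the early genes of hypertrophic and mechanical stimulation.

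RefSeq promoter windows of the build GRCr8, from 250 bases before to 50 after the annotated start, were given for 7 of the 10 genes (Fosb, Fosl1, Fosl2, Jund, Egr1, Junb and Ier2). Fos, Jun and Atf3 had no entry. Both strands were searched for the CArG box bound by the serum response factor, the AP-1 site TGACTCA, the CRE TGACGTCA bound by CREB and ATF proteins, the EGR site GCGTGGGCG and TATAAA. The 250 bases before the start are shown for Jund, the gene whose read count differed between the groups, and for Ier2 and Junb, with the motif matches in capitals. The Jund window is on the minus strand at chr16:18769772-18770021, that of Ier2 on the plus strand at chr19:40399123-40399372 and that of Junb on the plus strand at chr19:40080876-40081125.
Jund: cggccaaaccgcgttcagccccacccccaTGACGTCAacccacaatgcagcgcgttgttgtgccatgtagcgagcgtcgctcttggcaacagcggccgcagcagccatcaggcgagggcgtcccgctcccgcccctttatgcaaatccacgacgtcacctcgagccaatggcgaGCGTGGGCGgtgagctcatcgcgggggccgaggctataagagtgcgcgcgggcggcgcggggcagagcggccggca
Ier2: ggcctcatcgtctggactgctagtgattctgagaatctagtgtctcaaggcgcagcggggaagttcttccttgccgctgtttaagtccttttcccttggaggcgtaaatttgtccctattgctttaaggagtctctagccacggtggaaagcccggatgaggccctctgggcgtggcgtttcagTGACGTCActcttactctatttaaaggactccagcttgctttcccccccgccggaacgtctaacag
Junb: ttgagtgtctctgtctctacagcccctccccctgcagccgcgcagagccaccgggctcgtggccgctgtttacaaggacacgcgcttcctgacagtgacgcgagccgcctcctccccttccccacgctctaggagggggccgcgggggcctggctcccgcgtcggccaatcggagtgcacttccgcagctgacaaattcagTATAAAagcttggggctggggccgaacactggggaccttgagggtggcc

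The Jund window held a CRE at -221 to -214 and an EGR site at -76 to -68, counted from the annotated start. The Ier2 window held a CRE at -66 to -59, the Junb window TATAAA at -49 to -44, and the Fosb window TATAAA on the other strand at -180 to -175. Egr1 was the gene with CArG boxes, at -105 to -96 and at -83 to -74. The Fosl1 and Fosl2 windows held none of the 5 motifs, and no window held the AP-1 site. Of all 33469 promoter windows 1.64% held a CArG box, 4.63% the AP-1 site, 1.83% the CRE, 0.544% the EGR site and 14.2% TATAAA. These matches are letters in a window and do not show that a factor was bound.

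In abundance per transcript length (TPM) the 10 genes spanned a wide range of levels. Jund lay far above the others, with 179 to 243 TPM over the 9 libraries. Fosl2 followed at 69.8 to 80.3 TPM and Jun at 62.4 to 74.0 TPM. The ranges of Fosl2 and Jun overlapped, although Fosl2 was above Jun in 9 of 9 libraries. The TPM of Fosl2, and so this order, depends on how its reads were divided by estimate between transcripts of 1526 and 11222 bases. Junb had 53.5 to 61.8 TPM and Ier2, a nuclear protein encoded by an intronless early gene, 39.6 to 47.3 TPM. Egr1, the zinc finger factor of GC-rich early promoters, was at 11.1 to 14.3 TPM and Fosl1 at 8.47 to 11.8 TPM, with Egr1 above Fosl1 in 8 of 9 libraries. Atf3, a stress-induced bZIP repressor, had 4.98 to 7.90 TPM and Fos 3.41 to 6.71 TPM, again overlapping, with Atf3 higher in 7 of 9. Fosb was the lowest, at 0.853 to 1.48 TPM. The rank of Jund depended on the unit. Its TPM used effective lengths of 866 to 1107 bases for a transcript of 1679 bases. In counts per 1e+06 reads (CPM) Jund, at 107 to 128, was near Jun at 105 to 119 and below Fosl2 at 172 to 196.

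In TPM the 2 AP-1 families thus differed in composition. The shares and ratios below depend on the effective length of Jund. They also depend on the estimated division of the Fosl2 reads between its transcripts. Of the summed TPM of the FOS family, Fosl2 made up 80.8% to 83.7% in single libraries, Fos 3.88% to 7.62% and Fosb 0.963% to 1.64%. Of the JUN family, Jund made up 58.2% to 64.9%, Jun 19.5% to 21.8% and Junb 15.6% to 20.02%. The JUN family summed to 3.74 ± 0.463 times the FOS family in ESW, 3.53 ± 0.0751 times in CW and 3.86 ± 0.0979 times in Control (SD, n = 3 each). The range of ESW, 3.37 to 4.26, enclosed those of CW and Control.

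**Figure D1:**
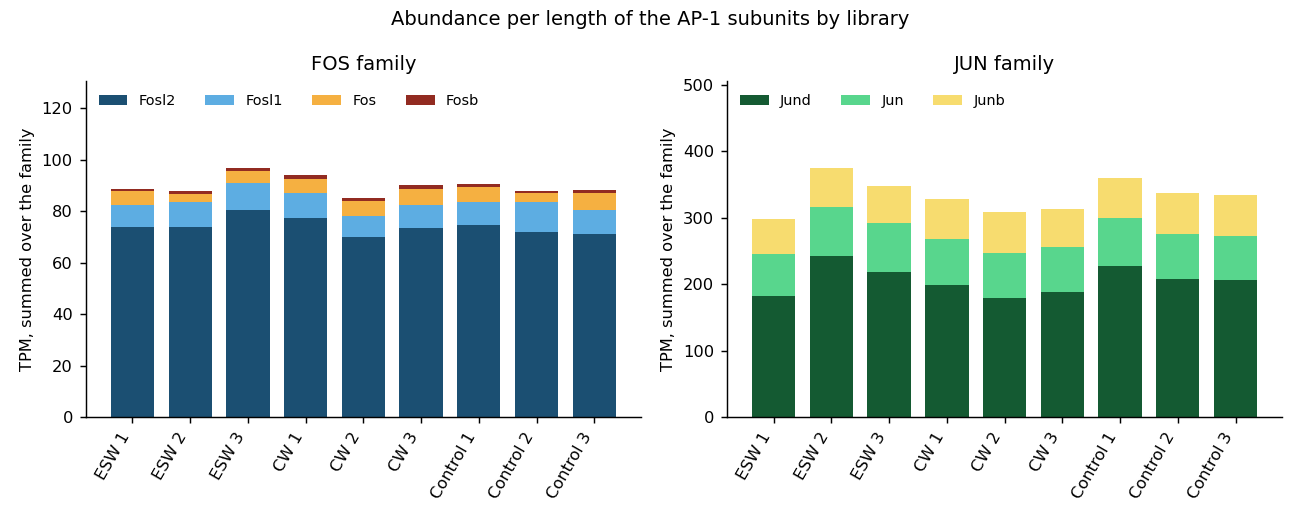
Stacked bars give the TPM of the FOS family (left) and of the JUN family (right) in each of the 9 libraries, from an axis that starts at 0. Fosl2 and Jund fill most of their bars in every library, and the JUN sums of the ESW libraries run from 299 to 374 TPM.

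Reads were tested across all genes. Each library held 26748673 to 48574618 estimated reads, and the 10 genes had between 57 reads (Fosb) and 8953 reads (Fosl2) in a library. All 10 passed the expression filter, as did 14706 genes in total. The cells carried the mesenchymal transcripts Col1a1, Acta2 and Vim at 2657 CPM or more (CPM, counts per 1e+06 reads of the TMM-scaled library total). The other myoblast markers were low: Myod1 at 7.59 to 11.2 CPM, Des at 3.88 to 6.65 CPM and Myog at 2.00 to 3.58 CPM. Myf5 had 2 reads over all libraries. The 11 marker genes of endothelium, blood and epithelium reached at most 1.34 CPM in any library, with the defining Pecam1, Cdh5, Ptprc and Epcam at up to 0.127 CPM. Of the cardiomyocyte markers Nppa, Nppb, Myh6 and Ryr2 stayed at or under 0.704 CPM. Tnni3, cardiac troponin I, was at 0.457 to 1.22 CPM and Tnnt2, cardiac troponin T, at 51.4 to 62.3 CPM. On the first principal component Control replicate 1 lay at -10.9, among the ESW libraries at -28.7 to -8.79 and away from Control replicates 2 and 3 at 7.08 and 12.3.

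The study set ESW against untreated cells and against CW, and CW is set against untreated cells here as well. The comparisons share libraries: both of ESW use the same 3 ESW libraries. In read counts Jund was higher in ESW in both comparisons, and no other of the 10 genes passed the test in any comparison. Against Control 1 of 10 genes was called higher (adjusted p under 0.05, edgeR's quasi-likelihood test with Benjamini-Hochberg adjustment over all 14706 genes) and 0 lower. Of all tested genes 8.04% were called, 4.76% higher and 3.28% lower. Against CW again 1 was called higher and 0 lower, with 8.14% called of all tested genes, 4.15% higher and 3.99% lower. At an unadjusted p under 0.05 stood 1 of the 10 genes against Control, where 22.8% of all genes did, and 4 against CW, where 23.9% did. Between CW and Control 0 were called by edgeR, 0 had an unadjusted p under 0.05 and 0 were called by DESeq2, where 0.177% of all genes were called, 0.0272% higher and 0.15% lower, and 9.87% had an unadjusted p under 0.05. A count of 1 in 10 is close to the share over all genes. The median log2 fold change of the 10 was -0.0014 against Control, -0.05 against CW and 0.04 for CW against Control, and over all genes the medians were -0.01, -0.0018 and -0.0004.

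**Figure D2:**
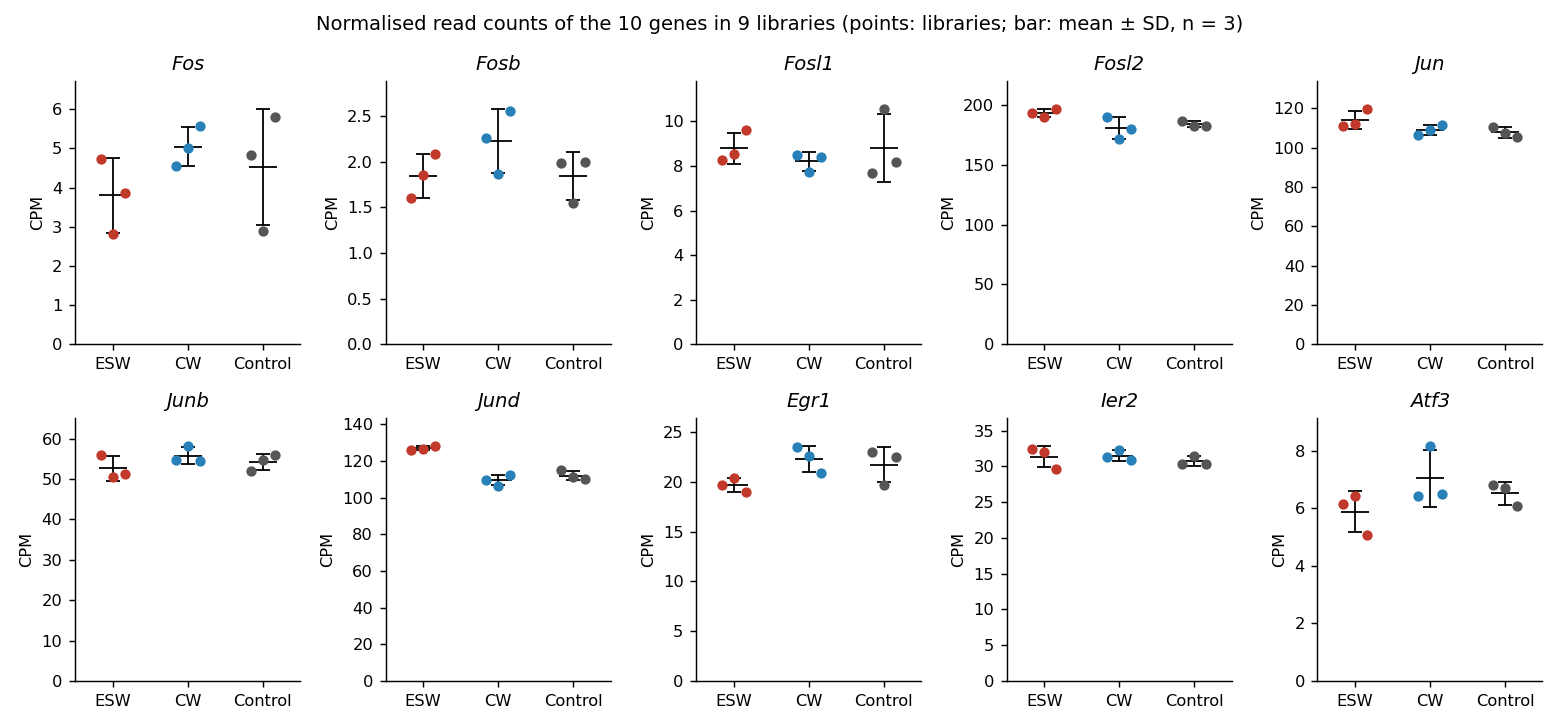
Points give the CPM of each gene in each library, with ESW, CW and Control from left to right, horizontal bars the group mean and whiskers the SD (n = 3). The Jund libraries of ESW at 126 to 128 CPM lie above all others, at 107 to 115 CPM, while the points of Fos scatter widely within ESW and Control.

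Among the JUN genes, Jund, the subunit that is present in resting cells, had 126, 126 and 128 CPM in the ESW libraries, 109.6, 107 and 112 CPM in CW and 115, 111 and 110.1 CPM in Control. The 3 ESW libraries were close together and above all 6 others. The log2 fold change was 0.18 against Control (SE 0.04, 95% interval 0.10 to 0.26, edgeR adjusted p = 0.0067) and 0.21 against CW (SE 0.04, 95% interval 0.13 to 0.29, edgeR adjusted p = 0.00315), that is 1.13-fold and 1.16-fold higher. For CW against Control it was -0.03 (95% interval -0.11 to 0.05). With the effective lengths as offsets the values were -0.0012 and 0.18, and neither was called.

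Jun, the classical partner of Fos, had 111, 112 and 119 CPM in ESW, 106, 109.1 and 111 CPM in CW and 110.5, 107 and 105 CPM in Control. ESW lay above Control in all libraries, by a narrow margin of 111.0 against 110.5 CPM between the closest libraries, and it overlapped with CW. The log2 fold changes were 0.08 against Control (95% interval -0.0013 to 0.17, edgeR adjusted p = 0.227) and 0.07 against CW (95% interval -0.02 to 0.15, edgeR adjusted p = 0.339).
Junb, which often restrains Jun, had 56.1, 50.5 and 51.3 CPM in ESW, 54.7, 58.2 and 54.6 CPM in CW and 52.1, 54.8 and 56.0 CPM in Control. The groups overlapped in every comparison. Its log2 fold change was -0.05 against Control and -0.09 against CW, with edgeR adjusted p = 0.639 and 0.323.

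Of the FOS genes, Fosl2 (Fra-2), the most abundant, had 193, 189.9 and 196 CPM in ESW, 189.7, 172 and 180.1 CPM in CW and 187, 182 and 183 CPM in Control. The ESW libraries were above all 6 others, yet the differences were small. The log2 fold change was 0.07 against Control (95% interval -0.01 to 0.15, edgeR adjusted p = 0.304) and 0.10 against CW (95% interval 0.01 to 0.18, edgeR adjusted p = 0.139).
Fosl1 (Fra-1) had 8.27, 8.52 and 9.60 CPM in ESW, 8.49, 7.71 and 8.41 CPM in CW and 7.70, 10.5 and 8.20 CPM in Control. Control replicate 2 was the highest and Control replicate 1 the lowest of all 9 libraries, so that one group held the whole range. The log2 fold changes were 0.0004 against Control and 0.10 against CW (edgeR adjusted p = 0.999 and 0.639), and the sign against Control turned without a filter and with the length offsets.

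Fos, the prototype of the early genes, had 4.73, 2.82 and 3.86 CPM in ESW, 4.56, 5.02 and 5.57 CPM in CW and 4.84, 2.90 and 5.81 CPM in Control. ESW replicate 2 and Control replicate 2 were the lowest libraries and Control replicate 3 was the highest, a 2.06-fold range. The log2 fold change was -0.42 against CW (SE 0.21, 95% interval -0.85 to 0.01, edgeR adjusted p = 0.218) and -0.27 against Control (SE 0.20, 95% interval -0.70 to 0.15, edgeR adjusted p = 0.458). In both comparisons that of Fos was the largest value of the 10 genes, and the libraries of the groups overlapped. Leaving out 1 library moved it against Control to between -0.50 (without Control replicate 2) and -0.04 (without Control replicate 3), and against CW to between -0.61 (without ESW replicate 1) and -0.24 (without ESW replicate 2). Without a filter on low counts Fos passed edgeR's test against CW, at -0.42 (SE 0.14, adjusted p = 0.045). That fit called 1621 of all genes against CW, beside 1197 with the filter.
Fosb, known for its stable splice form in the brain, had 1.60, 1.85 and 2.09 CPM in ESW, 2.26, 1.86 and 2.56 CPM in CW and 1.99, 1.55 and 2.00 CPM in Control. All groups overlapped, and the intervals of the log2 fold change were wide, from -0.43 to 0.42 against Control and from -0.70 to 0.16 against CW.

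Egr1 had 19.7, 20.4 and 18.9 CPM in ESW, 23.5, 22.5 and 20.9 CPM in CW and 23.0, 19.7 and 22.5 CPM in Control. The ESW libraries were below all 3 CW libraries, and they overlapped with Control through Control replicate 2. The log2 fold change was -0.18 against CW (SE 0.07, 95% interval -0.33 to -0.03, edgeR adjusted p = 0.123) and -0.14 against Control (SE 0.07, edgeR adjusted p = 0.223).
Ier2 had 32.4, 31.99 and 29.6 CPM in ESW, 31.3, 32.3 and 30.9 CPM in CW and 30.3, 31.5 and 30.3 CPM in Control. It was the gene with the narrowest range over the 9 libraries, 1.09-fold. Its 95% intervals ran from -0.08 to 0.14 against Control and from -0.12 to 0.11 against CW.

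Atf3 had 6.16, 6.43 and 5.08 CPM in ESW, 6.45, 8.17 and 6.51 CPM in CW and 6.80, 6.70 and 6.08 CPM in Control. ESW lay below all CW libraries, with 6.43 against 6.45 CPM between the closest libraries, and overlapped with Control. The log2 fold change was -0.26 against CW (95% interval -0.51 to -0.01, edgeR adjusted p = 0.191) and -0.14 against Control (95% interval -0.39 to 0.11, edgeR adjusted p = 0.519). It was -0.13 against CW without CW replicate 2 and -0.05 against Control without ESW replicate 3.
The libraries of both groups did not overlap for 3 of 10 genes in ESW against Control (Fosl2, Jun and Jund), for 4 of 10 in ESW against CW (Fosl2, Jund, Egr1 and Atf3) and for 0 of 10 in CW against Control. Over all tested genes these shares were 25.6%, 28.3% and 14.7%.

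**Figure D3:**
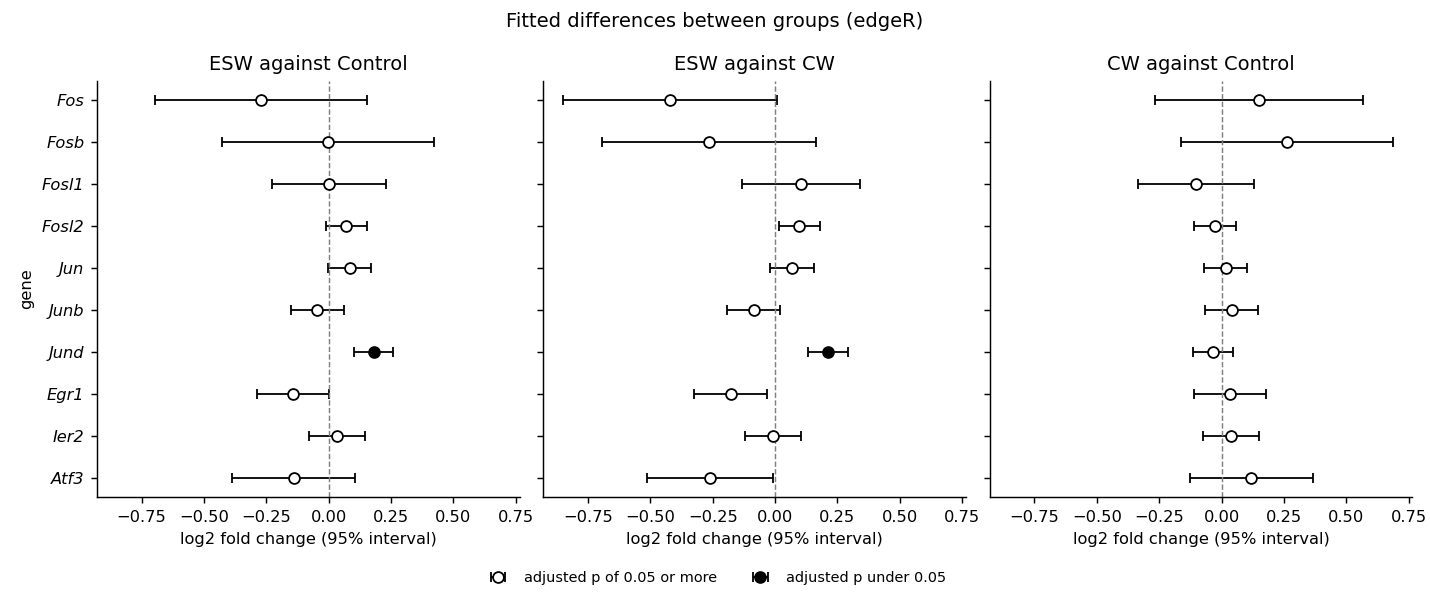
Points give the fitted log2 fold change of each gene in the 3 comparisons and whiskers its 95% interval, with filled points for an adjusted p under 0.05. Jund at 0.18 and 0.21 is the filled point, and the intervals of Fos and Fosb are the widest.

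The precision differed among the genes. The coefficient of variation of CPM within groups was 24.5% for Fos, 14.3% for Fosb, 11.4% for Fosl1 and 11.2% for Atf3, the 4 genes with the fewest reads. Counting error alone would give 8.05%, 11.8%, 5.64% and 6.52%, far below the variation seen for Fos and close to that seen for Fosb. For Jund, Jun, Fosl2 and Ier2 it was 2.02%, 3.04%, 3.10% and 3.34%, against 1.53%, 1.57%, 1.21% and 2.95% from counting. Junb and Egr1 were at 4.46% and 6.14%. All 30 intervals lay within a change of 2-fold in either direction. Those that reached beyond 1.5-fold were of Fos against Control, of Fos and Fosb against CW, and of Fosb in CW against Control.

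The difference in Jund depended on the scale. Salmon gives an effective length for each transcript and library, and for the 1679 bases of the Jund transcript it was 1107, 877 and 975 in the ESW libraries, 936, 988 and 968 in CW and 866, 886 and 888 in Control. The longest was 1.28 times the shortest, and 7.58% of all tested genes had a larger ratio. In ESW replicate 1, where this length was longest, Jund had the fewest TPM of its group, 183 against 243 and 218 in ESW replicates 2 and 3. The TPM were 199, 179 and 188 in CW and 226, 207 and 205 in Control. In TPM the ESW range enclosed Control and overlapped CW, in contrast to the CPM. With the effective lengths as offsets in the same edgeR test the log2 fold change was -0.0012 against Control (95% interval -0.15 to 0.14, adjusted p = 0.996) and 0.18 against CW (95% interval 0.04 to 0.33, adjusted p = 0.130). For CW against Control it became -0.18 (95% interval -0.33 to -0.04, adjusted p = 0.630). The part of the effective length in the difference in reads was not tested beyond this fit.

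**Figure D4:**
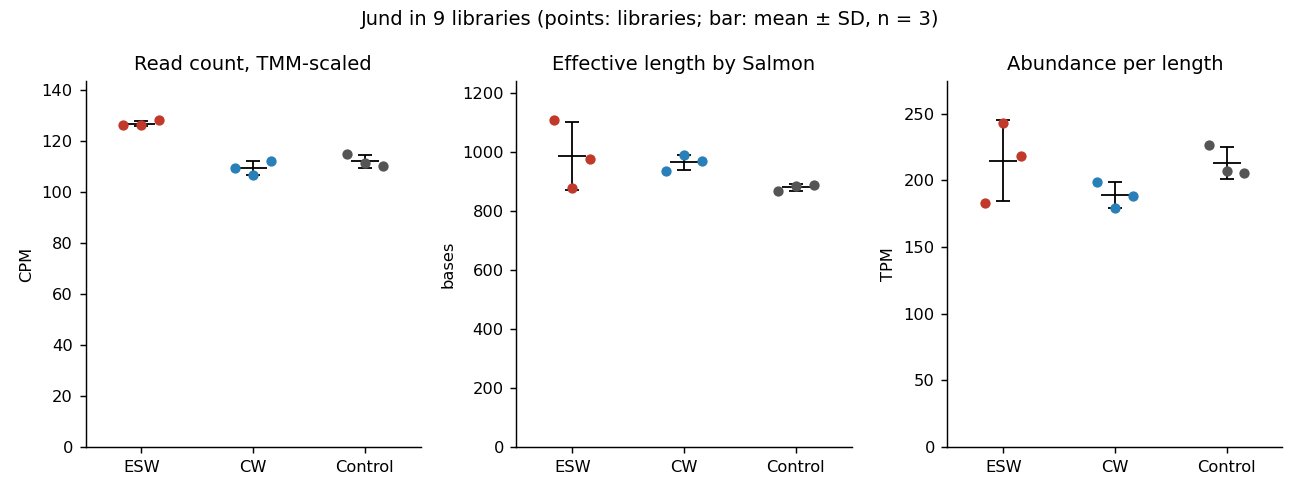
Points give the CPM (left), the effective length in bases (middle) and the TPM (right) of Jund in each library, with ESW, CW and Control from left to right, the group means as bars and the SD as whiskers (n = 3). The ESW libraries stand apart at 126 to 128 CPM, whereas their effective lengths of 877 to 1107 bases and their 183 to 243 TPM overlap with those of CW and Control.

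With the same offsets 0 of the 10 genes were called in any comparison. Junb was at -0.15 against Control (SE 0.04, edgeR adjusted p = 0.0724) and -0.12 against CW (adjusted p = 0.133), Egr1 at -0.19 and -0.20 (adjusted p = 0.196 and 0.128) and Jun at 0.0044 and 0.04. Fosl2 was at 0.05 and 0.04 and Fos at -0.30 and -0.43.

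Most of the genes had reads on 1 transcript. Fosl2 was divided between a transcript of 1526 bases, with 68.1% to 72.8% of the TPM of the gene, and one of 11222 bases, with 27.2% to 31.9%. The long transcript took more reads, 3869 to 6763 against 1250 to 2160 per library. A shorter Fosl2 transcript of 1274 bases had reads in Control replicate 3 alone. For Fosb the second transcript, of 2466 bases, held 0 to 19.4 reads and up to 29.6% of the TPM, and for Atf3 the second transcript held up to 0.417%. Reads that fit several transcripts of a gene were divided by estimate.

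Over the 9 libraries the 10 genes did not move as 1 block. Pearson's r of log2 CPM was above 0.5 in 9 of the 45 gene pairs and below -0.5 in 10, and it ran from -0.83 (Fosl2 and Atf3) to 0.81 (Fosl2 and Jund). Fos had r = 0.55 with Egr1, 0.54 with Junb and 0.51 with Fosb, whereas Jun and Jund were at r = 0.76 and Jund and Egr1 at r = -0.72. Taken as deviations from the group means, r was 0.55 for Fosl2 and Jund, 0.61 for Jun and Jund and -0.11 for Jund and Egr1. On the same footing Fos was at r = 0.34 with Egr1, 0.37 with Junb and 0.37 with Fosb. The 3 other genes most like Jund, out of 8862 whose mean reached 10 CPM, were Mfge8, a secreted protein that binds phosphatidylserine (r = 0.995), S1pr3, a receptor of sphingosine 1-phosphate (r = 0.98), and Actn4, an alpha-actinin (r = 0.98). These values describe 9 libraries that share their groups and their sequencing, and they carry no p.

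The genes around AP-1 were described by 6 lists of 142 genes, 128 of which were tested. Against Control edgeR called 6 higher and 1 lower, 5.47% of those tested, and against CW 10 higher and 0 lower, 7.81%, beside 8.04% and 8.14% of all genes. DESeq2 called 10 higher and 1 lower against Control and 11 higher and 1 lower against CW. At an unadjusted p under 0.05 stood 34 of the 128 against Control and 25 against CW, beside 22.8% and 23.9% of all genes. Between CW and Control 0 were called by edgeR, and 12 had an unadjusted p under 0.05, beside 9.87% of all genes. The counts varied with the libraries used. Against Control 2 were called without Control replicate 2, 2 without ESW replicate 3 and 11 without Control replicate 1. Against CW the count was 6, 4 and 2 when ESW replicate 1, 2 or 3 was left out, 1 when CW replicate 2 was and 5 when CW replicate 3 was. Of the 16 calls of the list genes named here, 7, 9 and 12 were lost without ESW replicate 1, 2 or 3, 6, 9 and 6 without CW replicate 1, 2 or 3, and 1, 5 and 2 without Control replicate 1, 2 or 3. None of the 16 log2 fold changes turned its sign in these fits, but their sizes held in some cases and moved in others. Without ESW replicate 3, Mapk3 was at 0.15 and Ccnd1 at 0.17 against CW, the same to 2 decimals as with all libraries. Neither was called. Mrtfa against Control fell from 0.16 to 0.13 without ESW replicate 3, and Atf5 against CW from 0.17 to 0.12 without CW replicate 2.

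Of the kinases, receptors and factors upstream of the early genes, 5 of 28 were called higher against Control and 3 against CW, and 0 lower. Over all tested genes 4.76% and 4.15% were called higher, and 3.28% and 3.99% lower. At an unadjusted edgeR p under 0.05 stood 8 of the 28 against Control and 7 against CW, beside 22.8% and 23.9% of all genes. Pdgfrb, a receptor of platelet-derived growth factor, had 876 ± 31.5 CPM in ESW, 762 ± 10.9 in CW and 754 ± 29.1 in Control (SD, n = 3 each). It was higher by 0.22 against Control (edgeR adjusted p = 0.00213) and 0.20 against CW (edgeR adjusted p = 0.00409) on the log2 scale, and it was called in both under each of 15 alternatives. Mapk3 (ERK1) had 127 ± 0.756 CPM in ESW, 115 ± 4.82 in CW and 110 ± 3.12 in Control, with log2 fold changes of 0.21 and 0.15 (edgeR adjusted p = 0.00355 and 0.0288). Map2k1 (MEK1), the kinase that activates it, was at 0.18 and 0.16 (adjusted p = 0.0149 and 0.0301) and was called in 12 and 10 of 15 alternatives. Mrtfa, a coactivator of the serum response factor, was called against Control, at 0.16 (adjusted p = 0.0178), and in 12 of 15 alternatives. Against CW it was at 0.10 and was not called (edgeR adjusted p = 0.142). Mapk3 was called against Control in all 15 alternatives and against CW in 9, and with the length offsets Mapk3 against CW and Mrtfa against Control were not called, at 0.14 and 0.11.

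Of 13 feedback regulators edgeR called 1 against Control and 1 against CW, and 3 had an unadjusted p under 0.05 in each comparison. Dusp6, the phosphatase of ERK that is itself induced by ERK, was lower against Control. It had 28.4 ± 1.09 CPM in ESW, 31.25 ± 2.79 in CW and 34.0 ± 2.26 in Control, a log2 fold change of -0.26 against Control (edgeR adjusted p = 0.0212). That value was -0.32 with the length offsets (adjusted p = 0.0167) and was not called without Control replicate 1, Control replicate 2, ESW replicate 2 or ESW replicate 3, at -0.22, -0.25, -0.26 and -0.23. Against CW Dusp6 was at -0.14 and was not called (edgeR adjusted p = 0.228). Spred1, an inhibitor of the Ras pathway, had 41.2 ± 2.72 CPM in ESW, 35.6 ± 0.933 in CW and 40.0 ± 1.70 in Control. It was higher against CW, at 0.21 (edgeR adjusted p = 0.026), a call kept in 9 of 15 alternatives with values of 0.15 to 0.26 over all of them, and it was at 0.04 against Control (edgeR adjusted p = 0.699). Dusp1, a phosphatase of p38 and JNK, had 171 ± 11.7 CPM in ESW, 156 ± 5.70 in CW and 153 ± 6.40 in Control (edgeR adjusted p = 0.0521 against Control and 0.0929 against CW), and DESeq2 called it against Control.
Of 48 other early response genes edgeR called 1 higher against Control and 3 against CW, beside 4.76% and 4.15% of all genes. DESeq2 called 3 against Control and 4 against CW. At an unadjusted edgeR p under 0.05 stood 15 of the 48 against Control and 8 against CW, beside 22.8% and 23.9% of all genes. Ccn2 (CTGF), a matricellular protein, was higher in both, at 0.14 and 0.16 (edgeR adjusted p = 0.0465 and 0.0248), and Ccn1 and Rhob, a small GTPase, were higher against CW, at 0.13 and 0.12 (adjusted p = 0.0468 and 0.0481). With the length offsets none of these 4 calls was kept: Ccn2 was at 0.08 against Control and 0.13 against CW, Ccn1 at 0.11 and Rhob at 0.09. Over the 15 alternatives Ccn2 was called in 6 against Control and in 11 against CW, Ccn1 in 7 and Rhob in 4.

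Of 14 possible dimer partners and related bZIP factors 0 were called against Control by edgeR, 4 had an unadjusted p under 0.05 and 1, Atf5, was called by DESeq2. Against CW 2 were higher: Atf5 at 0.17 and Mafk at 0.18 (edgeR adjusted p = 0.0155 and 0.0292), each called in 11 of 15 alternatives. Of 7 genes of the EGR, NAB and NR4A families 0 were called by edgeR or DESeq2 and 0 had an unadjusted p under 0.05 in either comparison. Nr4a1 had 4.90 ± 0.932 CPM in ESW, 4.97 ± 0.372 in CW and 4.26 ± 0.267 in Control, while Egr2 and Egr3 were under 0.4 CPM on average in each group. Of 19 known AP-1 target genes 0 were called against Control by edgeR or DESeq2, with 5 at an unadjusted p under 0.05. Against CW edgeR called 1 higher, Ccnd1 (cyclin D1), with 517 ± 5.41 CPM in ESW, 458 ± 17.98 in CW and 486 ± 26.3 in Control, a log2 fold change of 0.17 against CW (edgeR adjusted p = 0.0154) that was called in 11 of 15 alternatives. DESeq2 called Ccnd1 higher and Vegfa, the angiogenic growth factor, lower against CW. Vegfa had 149 ± 6.76 CPM in ESW, 162 ± 0.425 in CW and 155 ± 5.80 in Control, with a log2 fold change of -0.13 against CW (edgeR adjusted p = 0.0644). It was also called lower against CW with the length offsets, with the filter of 1 CPM, and without ESW replicate 1 or Control replicate 1. Mmp1, Mmp3, Mmp10 and Mmp13, the collagenases and stromelysins that are textbook AP-1 targets, were too low to be tested, with 0, 19, 3 and 0 reads over all libraries.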

How the data were processed

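Per the labels' protocols, total RNA of 9 H9c2(2-1) samples was read on an Illumina instrument. Salmon 1.10.3 and DESeq2 are named in the submitters' processing notes. Per the file headers, each deposited table gives, for 114122 RefSeq transcripts, an estimated count of reads, a TPM value scaled by the authors' Salmon run for effective length and library total, and the length and effective length, another kind of value, in bases. Effective lengths differed between libraries for the same transcript. Whether Salmon's bias options were used, the annotation release and the handling of strand are not given in the sources used here.

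A RefSeq gene table of GRCr8 gave each transcript its gene (all 114122 matched by accession). Estimated counts were summed per gene and rounded, and TPM summed. Genes were tested with edgeR 4.0.16 under R 4.3.3 (quasi-likelihood, TMM scaling, filterByExpr, 14706 genes, 6 residual degrees of freedom), with Benjamini-Hochberg adjustment over all genes and a threshold of 0.05. Intervals are 95% and use the SE of that test. Log2 CPM used a prior count of 2. The test was also run on simulated counts, the outcome of which is not reported here. Libraries of the same group differed by 4.1 to 8.95 times the counting variance, so that no 2 tables agreed within sampling noise.

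Alternatives were DESeq2 size factors, no filter, 1 CPM in 3 libraries, DESeq2 1.42.0, effective length offsets, the replicate number as a block, and leaving out each library. For the list genes they were added after the data had been seen. The 10 genes, the lists and the rule for naming list genes (up to 4 called genes with the smallest p per list and comparison) were chosen with earlier results of these data known. Dusp1, Vegfa, Nr4a1, Egr2, Egr3 and the Mmp genes were named after their values were seen.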

Additional observations from a re-analysis of the deposited data

How the results depend on the processing

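The call of Jund in ESW kept its direction and its side of the threshold in both comparisons under 14 of 15 alternatives, with log2 fold changes of 0.17 to 0.19 against Control and 0.20 to 0.23 against CW when each library was left out in turn. None of these 14 took the effective lengths into account, so they do not bear on that point. With length offsets the call of Jund was lost in both comparisons, with values of -0.0012 and 0.18. That left 0 of the 10 genes called against Control and 0 against CW. Without a filter 2 were called against CW, Fos and Jund, where 1621 of all genes were called. The cause was not tested.

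No value that changed sign, other than that of Jund against Control, had passed the test. With length offsets Fosl1 was at -0.0431 and Ier2 at -0.0717 against Control, and for CW against Control Fosl2 was at 0.0107, Ier2 at -0.042, Jun at -0.0356 and Junb at -0.0344. Fosl1 against Control was at -0.0009 without a filter and at -0.0104 with the filter of 1 CPM. Leaving out single libraries changed the sign of Fosb (-0.11 to 0.0864) and Fosl1 (-0.087 to 0.144) against Control, of Ier2 against CW (-0.0299 to 0.0271), and for CW against Control of Atf3 (-0.008 to 0.177), Egr1 (-0.0293 to 0.0787), Fos (-0.0776 to 0.382), Fosl1 (-0.184 to 0.0407), Fosl2 (-0.0639 to 0.0075) and Jun (-0.0018 to 0.0381).

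Over all genes the count called for ESW against Control was 440 with length offsets, and 397 to 1544 with 1 library left out (534 without Control replicate 2, 590 without Control replicate 3, 397 without ESW replicate 3). For ESW against CW it was 314 to 1486 (571 and 314 when ESW replicate 2 or 3 was left out, 407 and 474 when CW replicate 2 or 3 was). For CW against Control, with 26 in the fit reported, it was 273 without a filter, 2 with length offsets, 71 with DESeq2 and 5 to 51 with 1 library left out (17, 13 and 51 without Control replicates 1, 2 and 3, and 14, 11 and 5 without CW replicates 1, 2 and 3). Of the 128 genes of the other lists, 11 were called against Control without a filter and 11 with DESeq2, beside 1530 and 1364 of all genes. With 1 library left out 2 to 11 were called. Against CW 5 were called with length offsets and 1 to 12 with 1 library left out. For CW against Control 1 was called without a filter, 1 with DESeq2 and 0 to 1 with 1 library left out.

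The shared replicate numbers did not pair the libraries: deviations from the group means of same-numbered libraries correlated at -0.12 to 0.04, and 1 of 9 libraries correlated best with its own number. With the replicate block Jund was called in both comparisons, no call among the 10 genes changed, and Fosb against Control was at 0.0096. Counts under the block were 971 for ESW against Control, 949 for ESW against CW and 25 for CW against Control. Fosb had 57 to 98 reads in a library, and its spread within groups was 14.3%, against 11.8% from counting. The spread of Ier2, 3.34% against 2.95%, was nearer to its counting error. For Fos, Fosl1 and Atf3 the spread lay further above the counting error.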
